A study of Homo sapiens with 6 samples.

Results

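The G1/S and DNA replication genes are 49 human genes whose products license, start and carry out the copying of DNA. They were taken as a list of symbols, chosen with earlier results of these data known. Each gene was represented by a probe set that the platform annotation assigned to that symbol alone. Where there were several, the one with the highest mean over 6 arrays was used. All 49 had such a probe set, out of 18244 genes that did. SH-SY5Y, a human neuroblastoma cell line that serves as a model of neurons, was transfected with an inhibitor of the microRNA miR-137 (anti-miR-137, 3 arrays) or with Anti-miR Negative Control #1 (control, 3 arrays). Both were given with Lipofectamine RNAiMAX, at 15 pM as the labels state it, 24 hours after seeding, and total RNA was taken 72 hours later. The series was made to look for mRNAs that respond to the loss of miR-137. In both groups the arrays carry the numbers 1 to 3, and the labels do not say whether a number stands for a culture, a day or a batch, nor whether the replicates were separate cultures, so p-values measure only the spread between these arrays.

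Cells commit to division in G1, when cyclin-dependent kinases phosphorylate the RB protein and free the E2F transcription factors. E2F factors switch on many of the genes described here. The origin recognition complex, CDC6 and CDT1 load the MCM helicase onto origins, and CDC45 and the GINS complex then turn it into an active helicase. The polymerases, the sliding clamp PCNA, its RFC loader and the nucleotide-making enzymes follow, so the mRNAs of these genes are a common measure of cycling in a culture. In RNA from a whole culture, fewer cycling cells and less mRNA per cell cannot be told apart. MiR-137 is known in the nervous system as a regulator of the proliferation of neural progenitors.

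The values are log2 array signals, normalized so that arrays are comparable, and differences between arrays are log2 differences. A gene was tested when its probe set reached a mean log2 value of 5.69, the 40th percentile of all probe sets. That left 12639 genes, among them 48 of the 49 members, and the lowest value of a tested member in any array was 6.07, above that limit. Only *MCM5* fell below it, with 5.52, 5.63 and 5.64 in anti-miR-137 arrays 3, 2 and 1, against 5.76, 5.60 and 5.81 in control arrays 3, 2 and 1. It had a single probe set and was tested only in the alternative without that filter. Array medians lay between 6.39 and 6.43, precision was limited by how few arrays there were, and no probe set was named for the miR-137 gene, so its inhibition could not be checked here. Of the noradrenergic neuroblastoma markers, 18 of 20 were above the limit, among them *PHOX2A*, *DBH* and *TH*, while 3 of 10 Schwann and glial markers were. The RNA integrity numbers (RIN) were 9.7, 9.7 and 9.5 in anti-miR-137 samples 3, 2 and 1, and 9.7, 9.8 and 9.7 in control samples 3, 2 and 1.

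The labels name miR-137 as the target of the inhibitor, without its arm. The 3p arm is transcribed from the minus strand of chr1:98046091-98046113 (GRCh38.p14, RefSeq). It is shown because it is the mature arm usually meant by that name, with the seed, bases 2 to 8, in capitals.
hsa-miR-137-3p: uUAUUGCUuaagaauacgcguag

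The promoters of the members were read for the octamers by which E2F factors are known to bind DNA. The letters searched were TTTCCCGC, TTTCGCGC, TTTGCCGC and TTTGGCGC on both strands, where matches may overlap, in RefSeq windows of 250 bases before to 50 bases after each gene's start. A window was given for 42 of the 49 members, and 22 of the 42 (52.4%) held at least 1 octamer. The share was 6.48% of the 10328 tested genes with a window and 3.31% of all 35116 windows. Of *MCM2* to *MCM7*, every gene with a window held one (4 of 4), as did 3 of 5 genes of helicase activation. The CCAAT box, searched in the same way on both strands, stood in 25 of 42 members (59.5%) and in 42.9% of the tested genes with a window. The 6 stretches below, each of 100 bases, are those of the 4 members with an octamer and the smallest p between arrays of number 3 and number 1 (*GINS3*, *GINS2*, *MCM2*, *CDC6*), and of the 2 with the largest p (*LIG1*, *DUT*). Capitals mark octamers in either orientation. They lie at chr16:58392420-58392519 (plus strand), chr16:85688932-85689031 (minus), chr3:127598361-127598460 (plus), chr17:40287829-40287928 (plus), chr19:48170405-48170504 (minus) and chr15:48332109-48332208 (plus) in GRCh38.p14.
GINS3: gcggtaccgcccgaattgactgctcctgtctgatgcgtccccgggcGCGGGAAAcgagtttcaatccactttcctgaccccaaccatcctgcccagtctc
GINS2: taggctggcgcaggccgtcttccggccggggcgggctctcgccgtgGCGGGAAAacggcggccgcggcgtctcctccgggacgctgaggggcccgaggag
MCM2: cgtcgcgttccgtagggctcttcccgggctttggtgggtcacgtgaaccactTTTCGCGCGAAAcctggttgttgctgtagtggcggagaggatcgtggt
CDC6: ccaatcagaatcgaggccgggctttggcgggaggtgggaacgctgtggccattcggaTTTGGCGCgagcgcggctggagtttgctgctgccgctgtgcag
LIG1: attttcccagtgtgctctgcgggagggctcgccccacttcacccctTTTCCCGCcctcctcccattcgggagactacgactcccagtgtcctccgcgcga
DUT: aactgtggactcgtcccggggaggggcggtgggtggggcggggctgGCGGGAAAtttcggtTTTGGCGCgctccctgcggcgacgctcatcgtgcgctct

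In *MCM2* the octamer on one strand overlaps that on the other, and *DUT* holds a pair of them. Within the members, the median log2 difference between numbers 3 and 1 was 0.39 for the 22 genes with an octamer and 0.46 for the 20 without. Of the members with an octamer 16 of 22 passed that test, and of those without 15 of 20. Over all tested genes with a window, 7.62% of those with an octamer and 4.33% of those without were higher in number 3 past the test, with median differences of 0.04 and -0.0096. These shares include the members. With the members taken out they were 5.41% and 4.18%, with medians of 0.03 and -0.01. A match is a description of these letters, and binding was not measured.

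No member differed past the test between anti-miR-137 and control arrays. None of the 48 tested members had an adjusted p under 0.05 (limma, Benjamini-Hochberg over 12639 genes), where 0% of all genes did, and none had an unadjusted p under 0.05, as 335 of all tested genes did. The smallest unadjusted p of a member was 0.17, and every adjusted p was 1.00. For no member did the 3 anti-miR-137 values lie wholly above or below the 3 control values, which was the case for 7.36% of all tested genes. Values were higher in anti-miR-137 arrays for 37 of 48 members and lower for 11, with a median log2 difference of 0.049, against 52.0% higher and a median of 0.0033 over all tested genes. With RIN as a covariate 46 of 48 were higher, with a median of 0.17. RIN was 9.5 in anti-miR-137 array 1 and 9.7 or 9.8 in the others, so this covariate rests mostly on that array. Without that array 45 of 48 were higher, with a median of 0.16. Leaving out an array of number 3 or 1 leaves the numbers unequal between the treatments: the count of members with higher values was then 6 without anti-miR-137 array 3, 45 without anti-miR-137 array 1, 47 without control array 3 and 9 without control array 1. It was 40 without anti-miR-137 array 2 and 35 without control array 2.

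Differences between treatments ran from -0.11 for *RPA2* to 0.21 for *CDT1*. The median half-width of a member's 95% interval was 0.32 log2 units, against 0.19 over all tested genes, and for 34 of the 48 members the interval lay within 0.5 units of 0. This fit had no term for number, so differences between numbers count as spread in these intervals and in the treatment errors below. With number as a block 0 members passed, and 2 had an unadjusted p under 0.05 (limma), as 815 of all tested genes did. The widest interval was that of *CDC6*, -0.54 to 0.74. Comparing arrays of the same number, members were higher in the anti-miR-137 array for 33 of 48 in number 3 (median 0.037), 32 in number 2 (0.033) and 37 in number 1 (0.059). The medians over all 12639 tested genes in the same numbers were 0.020, -0.0062 and -0.0011, with 7190, 6034 and 6270 genes higher. For 20 members the anti-miR-137 array was the higher one in all 3 numbers, and for 2 members, *MCM4* and *RPA2*, the lower one. Among the 12639 tested genes it was the higher one in all 3 numbers for 1901 and the lower one for 1667.

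**Figure D1:**
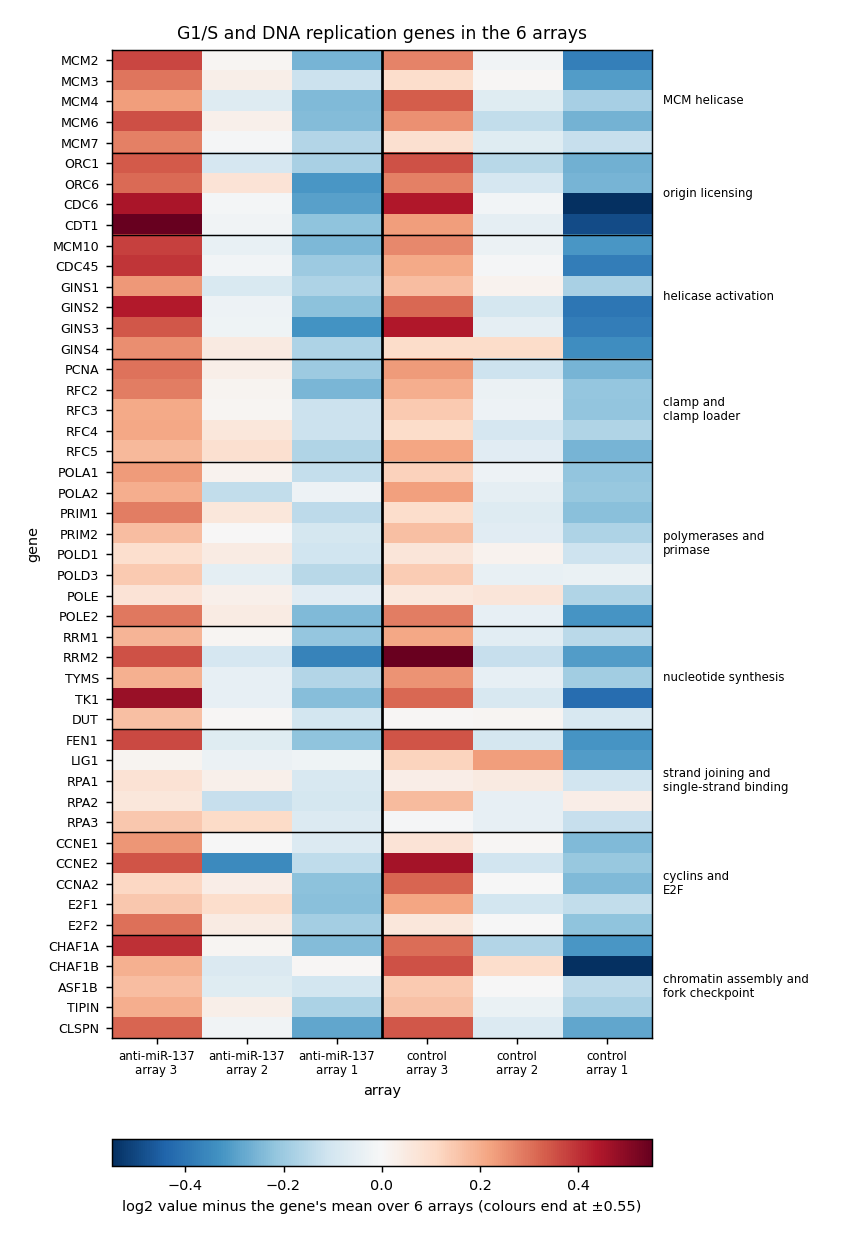
Each row is 1 of the 48 tested genes, ordered by role, and each column 1 array, with the anti-miR-137 arrays left of the control arrays and numbers 3, 2 and 1 from left to right. Colour gives the log2 value minus the gene's own mean over the 6 arrays; the arrays of number 3 are mostly red and those of number 1 mostly blue in both treatments, and the median over genes was 0.25 in anti-miR-137 array 3 and 0.21 in control array 3, against -0.17 and -0.24 in the arrays of number 1.

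Most members had more mRNA in the arrays of number 3 than in those of number 1. In a fit with treatment and number as terms, 34 of 48 members were higher in number 3 at an adjusted p under 0.05 (limma, 12639 genes), where 4.39% of all tested genes were. Past the same test 0 members were lower, where 3.84% of all tested genes were. The median log2 difference was 0.41 over the members and -0.012 over all tested genes. Both arrays of number 3 lay above both arrays of number 1 for 48 of 48 members, against 28.9% of all tested genes. In both treatments the array of number 3 stood above that of number 2, and number 2 above number 1, for 38 members, against 10.9% of all tested genes. The difference was 0.15 at its smallest, for *RPA2*, and 0.88 at its largest, for *CDC6*, a fold of 1.84. Ranked by this difference among the 12639 genes, 11 members stood in the first 100 and 31 in the first 500. Since the list was chosen with earlier results of these data known, these shares describe it and are no independent test.

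The direction was the same in either treatment taken alone, which follows from the order of the arrays given above. Number 3 minus number 1 had a median of 0.42 over the members in anti-miR-137 arrays and 0.44 in control arrays. In each, 48 of 48 members were higher in number 3. Of the 12639 tested genes, 6333 were higher in number 3 in anti-miR-137 arrays and 5778 in control arrays. RIN was 9.7 in number 3 and 9.5 in number 1 of the anti-miR-137 samples, and 9.7 in both of the control samples. The calls themselves rest on 2 arrays against 2: with any 1 array of number 3 or number 1 left out, 0 members passed, with medians of 0.41 to 0.45, and without the filter on dim probe sets 14 of 49 passed. What the numbers stand for is not given in the sources used here, and culture, day and array processing cannot be told apart.

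**Figure D2:**
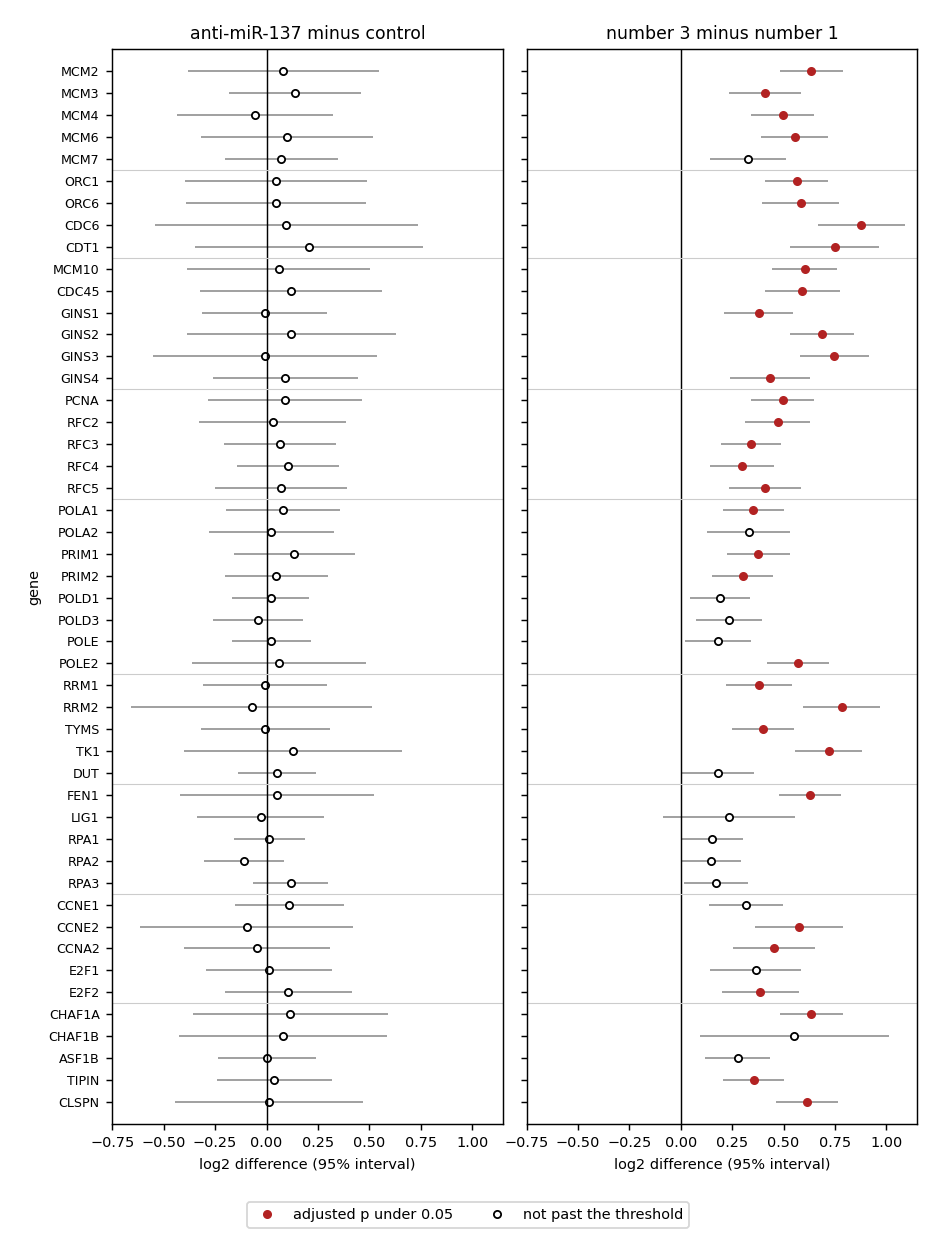
Points give each gene's log2 difference and lines its 95% interval, for anti-miR-137 minus control (left) and number 3 minus number 1 (right); filled red points have an adjusted p under 0.05. All 48 intervals on the left include 0, while 34 points on the right are filled and only the interval of *LIG1* on the right reaches below 0.

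MCM2 to MCM7 form the ring that unwinds DNA at the fork. Of the 5 tested MCM genes, 4 were higher in number 3 past the test, with differences of 0.41 to 0.63, and *MCM7* had 0.33 (adjusted p = 0.057, limma). *MCM2* measured 10.46, 10.11 and 9.84 in anti-miR-137 arrays 3, 2 and 1, against 10.37, 10.08 and 9.72 in control arrays 3, 2 and 1. Both arrays of number 3 were the highest and those of number 1 the lowest, while the treatments overlapped. Number 3 exceeded number 1 by 0.63 ± 0.062 (SE), and anti-miR-137 differed from control by 0.08 ± 0.20. *MCM3* had the greatest difference between treatments in this group, 0.14 ± 0.14, with 10.91, 10.65 and 10.50 in anti-miR-137 arrays 3, 2 and 1, against 10.72, 10.63 and 10.31 in control arrays. Its difference between numbers 3 and 1 was 0.41 ± 0.071 (adjusted p = 0.030). *MCM4* (0.50) and *MCM6* (0.55) completed the group.

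Loading of the MCM ring is the task of the origin recognition complex, of which ORC1 and ORC6 are subunits, together with CDC6 and CDT1. All 4 genes were higher in number 3, with the greatest median of the 9 role groups, 0.67. *CDC6* measured 10.54, 10.08 and 9.79 in anti-miR-137 arrays 3, 2 and 1, against 10.53, 10.07 and 9.52 in control arrays, so the same-numbered arrays nearly coincided in numbers 3 and 2. Its difference between numbers 3 and 1 was 0.88 ± 0.086 (adjusted p = 0.015) and ranked 12 of 12639. *CDT1*, whose protein is kept from reloading origins by geminin, measured 9.31, 8.74 and 8.54 in anti-miR-137 arrays 3, 2 and 1, against 8.99, 8.71 and 8.27 in control arrays. Here the anti-miR-137 array was the higher of each number, and the groups still overlapped. The treatment difference was 0.21 ± 0.24 (95% interval -0.35 to 0.76), and that between numbers 3 and 1 was 0.75 ± 0.088. *ORC1* (0.56) had values in number 2 close to those of number 1: 7.43, 7.004 and 6.92 in anti-miR-137 arrays 3, 2 and 1, and 7.44, 6.94 and 6.83 in control arrays. *ORC6* differed by 0.58.

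Activation of the helicase needs MCM10, CDC45 and the 4 GINS subunits. All 6 genes were higher in number 3 past the test, with a median of 0.60. *GINS3* measured 9.07, 8.71 and 8.40 in anti-miR-137 arrays 3, 2 and 1, against 9.17, 8.68 and 8.35 in control arrays, a difference between numbers 3 and 1 of 0.75 ± 0.067 (adjusted p = 0.015). Its difference between treatments was -0.01 ± 0.23. *GINS2* measured 9.93, 9.47 and 9.27 in anti-miR-137 arrays and 9.81, 9.40 and 9.10 in control arrays, in the same order of numbers. Number 3 exceeded number 1 by 0.69 ± 0.063, and anti-miR-137 exceeded control by 0.12 ± 0.22, the greatest treatment difference of this group and smaller than its error. *MCM10* (0.60) and *CDC45* (0.59) came next, and *GINS4* (0.43) and *GINS1* (0.38) had the smallest differences between numbers.

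PCNA is the ring that holds polymerases on DNA, and RFC2 to RFC5 are subunits of the complex that loads it. All 5 genes were higher in number 3, by 0.30 to 0.50. *PCNA* measured 12.88, 12.62 and 12.38 in anti-miR-137 arrays 3, 2 and 1, against 12.82, 12.47 and 12.33 in control arrays. The anti-miR-137 array was the higher one in each number, by 0.05 to 0.15, the treatments overlapped, and their difference was 0.09 ± 0.16. *RFC4* had the greatest treatment difference of the group, 0.10 ± 0.11, and the smallest between numbers 3 and 1, 0.30 ± 0.063 (adjusted p = 0.046). It measured 11.74, 11.59 and 11.41 in anti-miR-137 arrays 3, 2 and 1, and 11.63, 11.44 and 11.37 in control arrays. *RFC2* (0.47), *RFC5* (0.41) and *RFC3* (0.34) lay between *PCNA* and *RFC4*.

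All 8 polymerase and primase genes were higher in number 3, each with an unadjusted p under 0.05 (limma). The adjusted threshold divided them. Of 8 genes, 4 were higher in number 3 past the test: *POLE2* (0.57), the accessory subunit of the leading-strand polymerase, *PRIM1* (0.38) and *PRIM2* (0.30), the primase subunits, and *POLA1* (0.35), which extends their primers. The catalytic subunits of the other two replicative polymerases, *POLD1* (0.19) and *POLE* (0.18), did not pass, nor did *POLA2* (0.33) or *POLD3* (0.23). *POLE2* measured 9.62, 9.37 and 9.09 in anti-miR-137 arrays 3, 2 and 1, against 9.61, 9.28 and 9.005 in control arrays. *PRIM1* measured 10.14, 9.92 and 9.72 in anti-miR-137 arrays and 9.96, 9.79 and 9.63 in control arrays, with the anti-miR-137 array higher in each number and a treatment difference of 0.13 ± 0.13 (unadjusted p = 0.32, limma). In *POLE2* the order of the numbers was the same in both treatments, and its treatment difference was 0.06 ± 0.18.

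Nucleotide synthesis genes had the widest range between numbers. *RRM2*, the regulated subunit of ribonucleotide reductase, and *TK1*, thymidine kinase, are both known to be made in S phase. *RRM2* measured 11.24, 10.80 and 10.53 in anti-miR-137 arrays 3, 2 and 1, against 11.44, 10.77 and 10.59 in control arrays, a difference between numbers 3 and 1 of 0.78 ± 0.076 (adjusted p = 0.015). The anti-miR-137 array was lower than the control array in numbers 3 and 1 and higher in number 2, and the treatment difference was -0.07 ± 0.25. *TK1* measured 10.86, 10.34 and 10.15 in anti-miR-137 arrays and 10.70, 10.30 and 9.97 in control arrays, with 0.72 ± 0.066 between numbers and 0.13 ± 0.23 between treatments. The partner subunit *RRM1* (0.38) and thymidylate synthase, *TYMS* (0.40), were also higher in number 3. *DUT*, which removes dUTP, had 0.18 (adjusted p = 0.17).

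Genes that join strands or coat single-stranded DNA differed least. Only 1 of 5 passed between numbers 3 and 1: *FEN1*, the flap nuclease of Okazaki fragments, with 0.63 ± 0.061. *FEN1* measured 11.06, 10.63 and 10.47 in anti-miR-137 arrays 3, 2 and 1, against 11.04, 10.60 and 10.37 in control arrays. The 3 subunits of RPA, which also serves DNA repair, had 0.15 to 0.17, with adjusted p of 0.15 to 0.17. *RPA3* had the smallest unadjusted p between treatments of all members, 0.17, with 11.45, 11.41 and 11.23 in anti-miR-137 arrays 3, 2 and 1, against 11.30, 11.26 and 11.18 in control arrays. Its treatment difference was 0.12 ± 0.078, and the values overlapped. *RPA2* went the other way, with 11.22, 11.03 and 11.06 in anti-miR-137 arrays and 11.33, 11.11 and 11.19 in control arrays, a treatment difference of -0.11 ± 0.083. *LIG1*, the ligase of the lagging strand, had 0.23 ± 0.13 between numbers, and that was 0.04 in anti-miR-137 arrays and 0.43 in control arrays, where control array 3 measured 8.41 and control array 1 measured 7.98.

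Cyclins E and A drive entry into and passage through S phase, and E2F1 and E2F2 are activators of the transcription described above. *CCNE2* (0.58), *CCNA2* (0.45) and *E2F2* (0.39) were higher in number 3, while *CCNE1* (0.32, adjusted p = 0.056) and *E2F1* (0.36, adjusted p = 0.065) missed the threshold. *CCNE2* measured 8.85, 8.16 and 8.37 in anti-miR-137 arrays 3, 2 and 1, against 8.97, 8.40 and 8.30 in control arrays, and its lowest value was that of anti-miR-137 array 2. *CCNE1* measured 9.63, 9.38 and 9.31 in anti-miR-137 arrays and 9.46, 9.39 and 9.14 in control arrays, with a treatment difference of 0.11 ± 0.11. *CCNE2* had a treatment difference of -0.10 ± 0.22.

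Histone chaperones that rebuild chromatin behind the fork and proteins that guard it formed the last group. *CHAF1A*, the large subunit of chromatin assembly factor 1, led in both comparisons. It measured 9.59, 9.20 and 8.95 in anti-miR-137 arrays 3, 2 and 1, against 9.50, 9.03 and 8.87 in control arrays, with 0.63 ± 0.062 between numbers 3 and 1 and 0.12 ± 0.20 between treatments. *CLSPN*, the adaptor of checkpoint kinase 1 (0.62), and *TIPIN*, of the fork protection complex (0.36), were also higher in number 3. *CHAF1B* had a difference of 0.55 with a standard error of 0.19 (adjusted p = 0.13). It was 0.19 in anti-miR-137 arrays and 0.91 in control arrays, where array 1 stood at 6.69, while the others lay between 7.18 and 7.61. *ASF1B*, a histone chaperone, had 0.28 (adjusted p = 0.056).

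**Figure D3:**
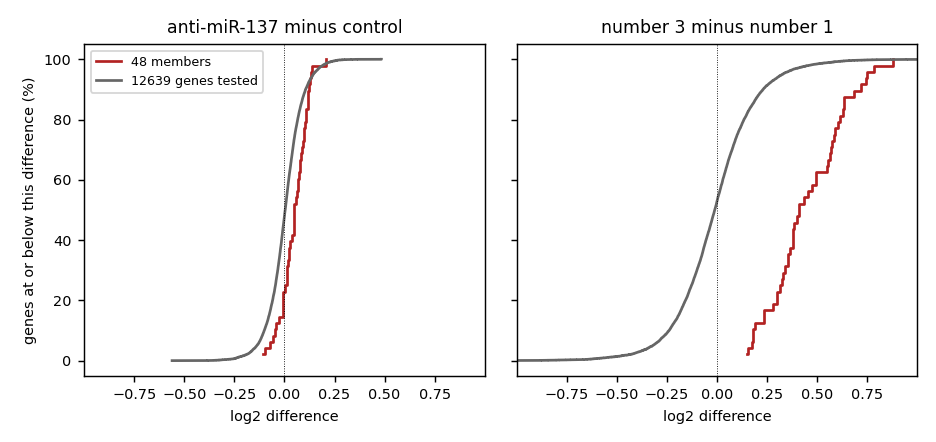
Curves give the percentage of genes whose log2 difference is at or below the value on the x axis, for the 48 tested members (red) and all 12639 tested genes (grey). Between treatments (left) the members' median is 0.049 against 0.0033 over all tested genes, with 77.1% of members and 52.0% of all tested genes above 0. Between numbers 3 and 1 (right) the members' median is 0.41 and their lowest value 0.15.

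Number 2 was set against the mean of numbers 3 and 1 in the same fit. None of 48 members passed in limma, where 0% of all tested genes did, and the smallest adjusted p of a member was 0.39. An unadjusted p under 0.05 was found for *CCNE2* (-0.34), *ORC1* (-0.18), *RPA2* (-0.13) and *RRM2* (-0.16), and for 992 of all tested genes. Members were lower in number 2 for 35 and higher for 13, with a median of -0.019, against 0.00045 over all tested genes.

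Other probe sets of the same genes gave a second reading. Of 70 further probe sets, in 36 members, 66 were higher in number 3 than in number 1, with a median of 0.45. Their differences ran from -0.29 for *LIG1* to 1.04 for *POLA2*, whose brightest probe set had 0.33. Between treatments 46 of the 70 were higher in anti-miR-137 arrays, with a median of 0.045. Of the 4 that were not higher in number 3, those of *GINS1* (-0.08) and *E2F2* (-0.10) were below the filter on dim probe sets, and those of *LIG1* (-0.29) and *RPA1* (-0.0021) were above it. Probe sets of one gene share its RNA and are not replicates.

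**Figure D4:**
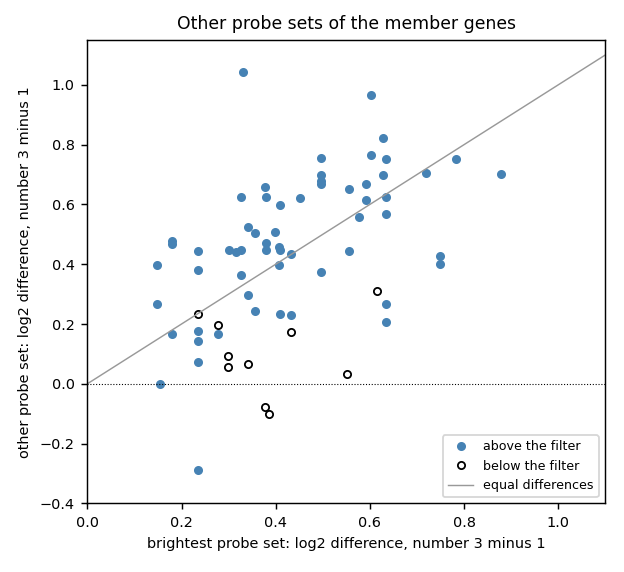
Each point is 1 of the 70 other probe sets of the members, with its gene's brightest probe set on the x axis and its own log2 difference, number 3 minus number 1, on the y axis; the line marks equal differences. Of the points, 66 lie above 0, and the 60 that were above the filter (filled) have a median of 0.46.

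Among genes of the same pathways outside the list, the difference between numbers was uneven. Of 41 tested genes with other parts in replication, 11 were higher in number 3 past the test and 0 lower, with a median of 0.24. Those with the smallest p were *TIMELESS*, the partner of TIPIN (0.54), and the checkpoint kinase *CHEK1* (0.53). Of 24 tested G1 control genes, 4 were higher and 0 lower, with a median of 0.15. These were the phosphatase *CDC25A* (0.73), *CCND1*, a D-type cyclin (0.62), and the E2F repressors *E2F7* (0.59) and *E2F8* (0.52), both named after their values were seen. In these lists, too, 0 genes passed between treatments (limma). The smallest p belonged to *MCM9* (-0.15) and *TICRR* (0.24) among replication genes. Among G1 control genes it belonged to the kinase inhibitor *CDKN1C* (-0.21) and the RB relative *RBL2* (-0.16).

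G2/M and mitosis genes were also higher in number 3. Of the members 34 of 48 (70.8%) passed the test, with a median of 0.41, and of the G2/M list 38 of 47 (80.9%), with a median of 0.42. *FOXM1*, a transcription factor of G2 genes (0.82), and *NDC80*, a kinetochore protein (0.58), had the smallest p. Whether the lists differ from each other was not tested. An E2F octamer stood in 22 of 42 member windows (52.4%), against 3 of 41 G2/M windows (7.32%), and a CCAAT box in 25 of 42 member windows (59.5%), against 32 of 41 (78.0%). Between treatments *INCENP* (0.13) and *CDC25C* (0.09) had the smallest p of the G2/M list, and 0 passed. Values were higher in anti-miR-137 arrays for 36 of 47 G2/M genes (76.6%), with a median of 0.022. The share was 77.1% of the members, with a median of 0.049.

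Lists of cell identity markers had medians nearer 0 or below 0 between numbers. The noradrenergic list had a median of 0.04 over 18 tested genes, 13 of them higher in number 3, against 47% of all tested genes. *ELAVL4* (0.40) and *SLC18A1* (0.30) passed as higher and 0 genes as lower. *CHGB* (-0.27) and *TH* (-0.24) were among those with lower values. The mesenchymal list, of a cell state that neuroblastoma cultures can hold, had a median of -0.20 over 15 tested genes. Of these, 12 were lower in number 3 and 3 were higher, the higher ones including *SNAI2* (0.38) and *LUM* (0.29). *YAP1* (-0.65) and the intermediate filament *VIM* (-0.40) passed as lower (adjusted p = 0.021 and 0.022, limma), as 3.84% of all tested genes did. *PRRX1*, *CD44*, *COL1A2*, *THBS1* and *MEOX2* of that list were below the filter in the mean of all arrays. As deviations from each gene's own mean, the median of the mesenchymal list was -0.07, -0.0065 and 0.15 in anti-miR-137 arrays 3, 2 and 1, and -0.08, -0.08 and 0.07 in control arrays 3, 2 and 1. In the Schwann and glial list *GFAP* differed between treatments by 0.20 (unadjusted p = 0.014, adjusted p = 1.00, limma), and 0 of 3 tested genes passed in any comparison. The part of the mesenchymal and noradrenergic differences in the values of the members was not tested.

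**Figure D5:**
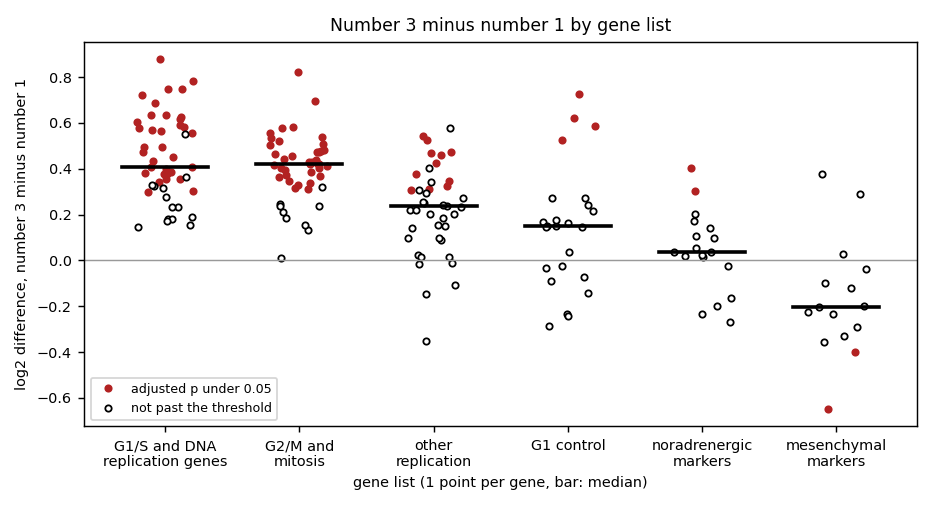
Each point is 1 tested gene and each bar a list's median, with the log2 difference of number 3 minus number 1 on the y axis; filled red points have an adjusted p under 0.05. The members (median 0.41) and the G2/M genes (0.42) lie highest, other replication genes (0.24) and G1 control genes (0.15) lower, and the mesenchymal markers (-0.20) below 0.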

How the data were processed

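Total RNA from 6 SH-SY5Y samples, 3 per treatment, was hybridised to Affymetrix arrays. The authors deposited 1 table of log2 values for 49495 probe sets, made with RMA in R 3.0.1 per the submitters' processing notes. No values were left unmapped (0 unused columns). After removal of 102 control probe sets, probe sets with 1 gene symbol were kept (45278; 1333 had several and 2782 none), those under the 40th percentile of the mean over arrays were dropped, and the brightest probe set stood for a gene. Models were fitted with limma 3.58.1 in R 4.3.3 over 12639 genes, with Benjamini-Hochberg adjustment and a threshold of 0.05. Treatment was tested with treatment as the only term, and array numbers in a fit with treatment and number. The fits were run on simulated data, with noise independent between arrays, to check that the mean estimate recovered the shift put in. In the real data the same-numbered arrays of numbers 3 and 1 were correlated, so error rates here were not tested. The members and gene lists were chosen with earlier results of these data known. Named genes were, per role, those with the largest difference of each kind, and, per list, those with the smallest p, and beyond these the other members by value and any count of 5 or fewer. Promoter windows and the miRNA came from RefSeq.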

Additional observations from a re-analysis of the deposited data

How the results depend on the processing

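Without the filter on dim probe sets 14 of 49 members passed between numbers 3 and 1, and without probe sets of suffix _s, _x and _a 12 of 17 did. With 1 array left out the count ran from 0 to 37: 0 without any single array of number 3 or 1 (1 residual degree of freedom, 38 to 40 members at an unadjusted p under 0.05) and 37 without either array of number 2. Their medians ran from 0.41 to 0.45. All genes passing were 1040 as reported, 169 without the filter, 1657 with a filter at the 60th percentile, 2305 with a variance trend, 1441 without an array of number 2 and 0 to 3 without one of number 3 or 1. Members passing were 34 to 44 under the other alternatives that kept all 48. The setting without _s and _x probe sets, with 27 of 43 members passing, was chosen after seeing the data. Between treatments 0 members passed in every alternative run, while the median ran from -0.06 to 0.16 with 1 array left out and was 0.17 with RIN as a covariate (46 of 48 higher). For number 2, 0 members passed in every alternative run, with medians of -0.04 to -0.03 with 1 array left out, while all genes passing were 0 as reported and 90 with a variance trend. Deviations of same-numbered arrays correlated at 0.65, 0.073 and 0.55 for numbers 3, 2 and 1. The main treatment fit did not take the numbers as pairs, so differences between numbers count as spread in its errors. With number as a replicate block, 0 members passed between treatments (2 at an unadjusted p under 0.05) and the median was 0.049.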
